A study of Mus musculus with 6 samples.

Results

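TRAV segments are the variable (V) genes of the α chain of the mouse T cell receptor (TCR), and each is joined in a developing T cell to a TRAJ joining segment. The segments described here are all TRAV genes named in assembled α chain contigs of 3 single-cell TCR libraries. Cell barcodes that joined TRAV11 or TRAV11D to TRAJ18, the α chain of invariant natural killer T (iNKT) cells, were left out, 852 barcodes in all. This kept 7664 of 8561 α contigs in 6899 of 7751 barcodes, under 88 TRAV gene names of 20 families. WT HFD gave 2284 contigs in 1997 barcodes, WT HFD+HDCA gave 3235 in 2891, and iNKT KO HFD+HDCA gave 2145 in 2011.

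The cells were mononuclear cells sorted from mouse liver, and gene counts and TCR contigs were read from the same droplets. WT HFD denotes wild-type mice fed a 60% high-fat diet for 12 weeks, and WT HFD+HDCA denotes wild-type mice whose 60% high-fat diet also contained 0.25% hyodeoxycholic acid, a bile acid. iNKT KO HFD+HDCA denotes Ja18-/- mice, which lack the Jα18 segment that the iNKT receptor needs, fed the diet with 0.25% hyodeoxycholic acid. All groups thus shared the high-fat diet, each had 1 RNA library and 1 TCR library, and the sources used here give neither the number of mice pooled nor their age. In the labels the sort is for CD45 in some places and for CD4 in another. B cells and CD8 T cells were found in every library, so the cells were not CD4 cells alone. With 1 library per group no difference between groups could be tested, and the intervals below (exact Clopper-Pearson for shares, conditional exact for ratios, at 95%) cover counting error only. The diet with HDCA was compared with the diet without it in wild-type mice, and the knockout with wild type under HDCA. Where a sentence gives 3 values without naming libraries, they stand in the order WT HFD, WT HFD+HDCA, knockout.

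The α chain locus holds its V segments in a long row, followed by the row of TRAJ segments and the constant gene Trac. The high-numbered TRAJ segments lie nearest to the V segments and TRAJ1 lies nearest to Trac. Joining deletes the DNA between the joined segments. A first join between segments close to the gap can therefore be replaced by further joins that reach outward on both sides, until the cell passes selection or dies. Both alleles can rearrange, so a T cell can carry a pair of α chains. In the mouse much of the V row has been copied, and the copies, named with a D or an N, are nearly identical. Some V segments, named DV, also serve the TCR δ chain.

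Barcodes with a TRAV contig carried the RNA of T cells. At least 1 UMI (a counted RNA molecule) of Cd3d, Cd3e or Cd3g, the chains that carry the receptor to the surface, was found in 99.9%, 99.8% and 99.9% of them in WT HFD, WT HFD+HDCA and the knockout. In B cells of the same libraries that share was 3.93%, 5.28% and 4.34%. Median depths were 4562, 4499 and 4324 UMIs in B cells against 7309, 7367 and 7268 in the TRAV barcodes. Summed markers of B cells were at 307, 335 and 334 CPM (UMIs scaled to a common library total) in the TRAV barcodes and at 7314 to 7467 CPM in B cells, and those of hepatocytes were under 1 CPM. In the TRAV barcodes NK markers summed to 1121, 1239 and 1093 CPM, myeloid markers to 243, 282 and 280 CPM, and 2 γδ T cell markers to 29.7, 38.8 and 78.6 CPM, highest in the knockout. No marker of these lists was at 0, and the part of such cells in the results was not tested. Between 6 and 10 TRAV barcodes were shared by any 2 libraries, none with the same chain. The median contig rested on 4, 4 and 5 UMIs, and 1668 of the 7664 contigs had fewer than 3.

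Before any TRAV name is compared, the V sequences themselves need to be shown, because the same name stood for other bases in the knockout. Stretches of 60 bases are printed for 4 families with a single gene, where no copy can be mistaken for another. They are the most frequent contig sequence of that name, and capitals mark bases that differ between the wild-type libraries and the knockout. TRAV2, at the far end of the V row, is shown as a segment with no difference, and the others lie at the end nearest to the TRAJ row.
TRAV2, both wild-type libraries: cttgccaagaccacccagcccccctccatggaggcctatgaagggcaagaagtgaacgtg
TRAV2, knockout: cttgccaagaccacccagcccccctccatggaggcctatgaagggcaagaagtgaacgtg
TRAV17, both wild-type libraries: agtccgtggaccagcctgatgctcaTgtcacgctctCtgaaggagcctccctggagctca
TRAV17, knockout: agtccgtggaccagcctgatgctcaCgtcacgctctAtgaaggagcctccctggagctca
TRAV19, both wild-type libraries: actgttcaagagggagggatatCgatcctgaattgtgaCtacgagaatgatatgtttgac
TRAV19, knockout: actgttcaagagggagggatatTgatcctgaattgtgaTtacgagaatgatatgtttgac
TRAV21-DV12, both wild-type libraries: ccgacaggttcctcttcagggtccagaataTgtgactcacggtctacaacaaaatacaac
TRAV21-DV12, knockout: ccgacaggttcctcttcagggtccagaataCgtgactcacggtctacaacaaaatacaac

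Counted from the first base of framework 1, with the wild-type base written first, TRAV17 carried T30C, C41A and A163G in all 12 knockout contigs of that name, and none of the 27 wild-type contigs did. TRAV19 carried C56T, C72T and C184T in 26 of 26 knockout contigs, against 62 of 62 wild-type contigs with the other bases. TRAV21-DV12 carried T138C and C226A in 13 of 16 knockout contigs, while its 56 wild-type contigs shared 1 sequence. TRAV2 had the same 261 bases in all 24 contigs.

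The same held across the V row. Between the wild-type libraries, 0 of 69 TRAV names with at least 5 contigs in each differed in their leading sequence from framework 1 to framework 3, and 99.7% of WT HFD contigs carried the leading WT HFD+HDCA sequence of their name. Between the knockout and WT HFD+HDCA, 44 of 49 names differed, 1 of them also in length and the others by 1 to 10 bases with a median of 3. Of the knockout's 2145 contigs, 10.9% (9.58% to 12.3%) carried the leading WT HFD+HDCA sequence of their name. A V sequence found in any α contig of WT HFD+HDCA, under any TRAV name, was carried by 13.1%. In the knockout 14 names were given to a second sequence with at least 5 contigs, against 0 names in either wild-type library. The V segments of the β chain, which lie on another chromosome, served as a control: 0 of 22 TRBV names differed and 99.9% of knockout contigs carried the wild-type sequence. Part of the J side differed too. In the framework 4 bases, 6 of 20 TRAJ names differed by 1 or 2 bases, and 66.5% of knockout contigs carried the wild-type sequence of their TRAJ name.

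**Figure D1:**
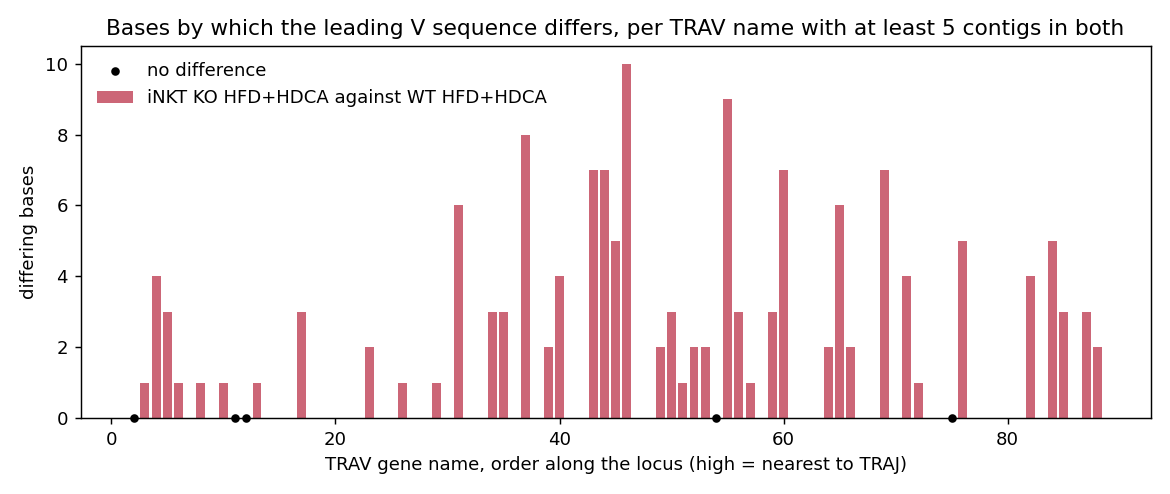
Number of bases by which the leading V sequence of a TRAV name differed between iNKT KO HFD+HDCA and WT HFD+HDCA, for names with at least 5 contigs in both, ordered along the locus with the TRAJ row to the right. Bars rise to 10 bases at most, black points on the axis are names with no difference, and the name whose sequences differ in length is not drawn.

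Since a knockout contig is named after the closest reference segment, a name with a D, N or copy number can stand for different genes in the knockout and in the wild type, and the 2 cannot be told apart here. The names used in each library differed to match. Of the 85 TRAV genes named in both wild-type libraries, 24 had 0 contigs in the knockout, although they made up 818 and 1117 contigs in the wild-type libraries. No gene was named in the knockout alone. TRAV12D-3, with 68 and 133 wild-type contigs, had 0 in the knockout, and TRAV3-3 had 39, 61 and 129 and TRAV9-4 had 35, 40 and 100. By gene name 52 of 68 TRAV genes with at least 20 contigs in both libraries together were at least 1.5-fold apart between the knockout and WT HFD+HDCA (76.5%), against 13 of 60 between the wild-type libraries (21.7%). The gene counts gave a second view of the names. In barcodes with 1 α contig, 76.0% and 76.6% of the Trav UMIs in wild-type RNA lay on the contig's own gene and 63.9% in the knockout, but on the contig's family they were 78.0%, 78.5% and 85.0%. Families, not genes, are therefore compared between genotypes below.

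The 5 families used most over all contigs were TRAV6, TRAV7, TRAV9, TRAV12 and TRAV14, each at 10.0% to 13.2% of the 7664 contigs. TRAV6 took 12.9% (11.5% to 14.3%), 14.2% (13.0% to 15.5%) and 12.1% (10.7% to 13.5%), with overlapping intervals. TRAV7 took 18.3%, 10.5% and 9.60%, and stood out in WT HFD alone. TRAV9 took 9.81%, 9.09% and 13.7%, highest in the knockout. TRAV12 took 10.6%, 11.8% and 8.34% and TRAV14 took 10.99%, 10.6% and 8.21%, and both were lowest in the knockout. The order differed by library. In the knockout TRAV13 ranked above TRAV7, TRAV12 and TRAV14, at 11.2% of contigs against 7.71% in WT HFD and 9.86% in WT HFD+HDCA. TRAV3, at 8.58%, ranked above TRAV12 and TRAV14. Of the 240 knockout TRAV13 contigs, however, 57 came from 1 chain, TRAV13N-3 joined to TRAJ50. With each distinct rearrangement (defined below) counted once, TRAV13 took 8.81%, 10.4% and 7.46%. In the knockout it then ranked below TRAV7 (11.2%), TRAV14 (8.32%) and TRAV12 (8.21%). At the other end, TRAV18 was found in 4 contigs, all from WT HFD, and TRAV1 in 10, 7 and 0.

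**Figure D2:**
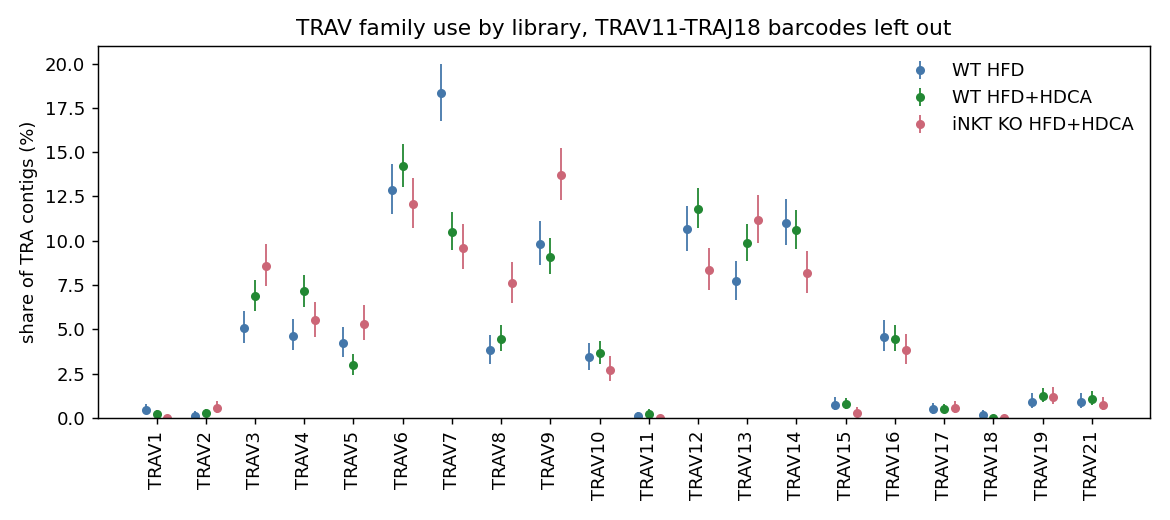
Share of α contigs (%, vertical axis) that used each TRAV family (horizontal axis) in each of the 3 libraries. Points are the shares and lines the exact 95% binomial intervals, which cover counting error only. TRAV7 in WT HFD, at 18.3%, and TRAV9 in the knockout, at 13.7%, lie above the other libraries.

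Under HDCA in wild-type mice, 2 of 16 families with at least 20 contigs were at least 1.5-fold apart (12.5%). TRAV7 was at 18.3% of contigs without and 10.5% with HDCA, a ratio of 0.573 (0.495 to 0.663), and TRAV4 at 4.64% and 7.14%, a ratio of 1.54 (1.22 to 1.96). The next were TRAV5 at 0.706 (0.526 to 0.947) and TRAV9 at 0.927 below, and TRAV19 at 1.38 and TRAV3 at 1.35 above. With at least 10 UMIs per contig, TRAV7 was at 0.254, TRAV4 at 2.27 and TRAV3 at 2.47, and TRAV9 turned to 1.27. The TRAV7 difference rested on 1 expanded clone of WT HFD: without the barcodes that carry each library's most frequent rearrangement its ratio was 0.915. When each distinct rearrangement (a TRAV gene, a TRAJ gene and a CDR3 nucleotide sequence) was counted once per library, TRAV7 stood at 11.3% and 10.7%, a ratio of 0.947 (0.790 to 1.14), and TRAV4 at 5.29% and 6.01%, a ratio of 1.13 (0.877 to 1.47). By that count 1 of 16 families was past 1.5-fold (6.25%). It was TRAV5, at 4.38% and 2.70%, a ratio of 0.618 (0.443 to 0.859).

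The knockout under HDCA differed from WT HFD+HDCA in more families, 5 of 17 (29.4%). Higher in the knockout were TRAV2 (12 against 9 contigs, ratio 2.01, 0.778 to 5.40), TRAV5 (5.31% against 2.97%, ratio 1.79, 1.35 to 2.37), TRAV8 (7.60% against 4.48%, ratio 1.70, 1.35 to 2.14) and TRAV9 (13.7% against 9.09%, ratio 1.51, 1.28 to 1.78). Lower were TRAV15 (6 against 25 contigs, ratio 0.362, 0.121 to 0.904), and within 1.5-fold TRAV21 (0.689, 0.356 to 1.28) and TRAV12 (0.707, 0.588 to 0.846). Counted once per distinct rearrangement, 4 of 16 families were past 1.5-fold (25.0%): TRAV8 at 1.84 (1.43 to 2.36), TRAV9 at 1.55 (1.30 to 1.86), TRAV12 at 0.657 (0.536 to 0.802) and TRAV15 at 0.370 (0.124 to 0.923). TRAV5 was then at 1.41 (0.995 to 1.999). The interval of TRAV2 includes 1. Shares of Trav UMIs in the RNA gave another picture for several families, rare and common. TRAV15 took 1.07% in the knockout against 0.839% in WT HFD+HDCA, the other direction, and TRAV2 0.845% against 0.857%. TRAV4 was higher in the knockout by RNA (9.90% against 8.05%) and lower by contigs (5.50% against 7.14%). TRAV13 was lower by RNA (10.3% against 14.7%) and higher by contigs (11.2% against 9.86%). The direction also differed for TRAV7 (RNA 10.4% against 9.91%) and TRAV19 (RNA 1.83% against 1.73%). For TRAV8 (11.9% against 8.27%), TRAV5 (4.93% against 3.38%), TRAV9 (7.20% against 5.95%) and TRAV12 (5.21% against 6.69%) the RNA shares had the direction of the contigs.

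Among joins known from innate-like T cells, few were left once the iNKT barcodes had been set aside. TRAV11 was joined to a TRAJ other than TRAJ18 in 2, 8 and 0 contigs. TRAJ18 was joined to other TRAV families in 38 contigs of 11 families in WT HFD and 62 contigs of 10 families in WT HFD+HDCA. In the knockout, whose labels give Ja18-/-, 1 of 2146 α contigs joined TRAV11 or TRAV11D to TRAJ18 and its barcode was left out by the rule. Of the 2145 contigs kept 0 had TRAJ18, which allows a share of up to 0.14%. TRAV1 joined to TRAJ33, the α chain of mucosal-associated invariant T (MAIT) cells, was found in 2 contigs of each wild-type library and in 0 of the knockout. The wild-type shares, 0.0876% and 0.0618%, lie under the 0.14% that a count of 0 allows in the knockout. The knockout's depth therefore cannot show a difference for this join. DV segments took 8.49% (7.38% to 9.71%), 8.995% (8.03% to 10.0%) and 6.62% (5.60% to 7.76%) of contigs. This share is a sum over gene names, so the knockout's value may not be matched to the same segments.

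In both wild-type libraries the TRAJ segment joined varied with the place of the TRAV segment in the row. The 88 TRAV genes were put in order along the locus from a RefSeq table of the GRCm38.p6 assembly, used for order only, and cut into 3 sections of 30, 29 and 29 genes: distal (TRAV1 to TRAV6N-6), middle (TRAV7N-5 to TRAV9-1) and proximal to the TRAJ row (TRAV6-5 to TRAV21-DV12). The TRAJ number of a distinct rearrangement averaged 25.1 ± 13.2 (SD over 460 rearrangements), 25.3 ± 12.9 (764) and 38.3 ± 12.3 (627) in these sections of WT HFD, and 25.2 ± 13.99 (643), 23.7 ± 13.3 (1143) and 38.2 ± 12.7 (878) in WT HFD+HDCA. In the knockout the means were 13.3 ± 12.2 (448), 11.8 ± 10.5 (753) and 13.6 ± 12.1 (529). The proximal section thus stood apart from the others in both wild-type libraries, while the knockout's sections, by this order, lay within 11.8 to 13.6. Rearrangements of 1 library share its mice and its depth, so the SDs describe chains and not animals.

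Windows of TRAJ numbers show the shape behind these means. In the distal section TRAJ40 and higher took 15.7% (12.5% to 19.3%) of distinct rearrangements in WT HFD and 17.6% (14.7% to 20.7%) in WT HFD+HDCA, and in the proximal section 49.3% (45.3% to 53.3%) and 49.8% (46.4% to 53.1%). In the knockout that range took 7.59% (5.31% to 10.4%) in the distal and 7.56% (5.46% to 10.2%) in the proximal section. Per contig these shares were 12.2%, 18.1% and 11.5% in the distal and 42.3%, 51.5% and 8.70% in the proximal section, where expanded clones weigh in. The knockout's profile depends on the order given to its names. With TRAV ordered by family number in place of the RefSeq order, TRAJ40 and higher took 4.23% of its distal and 25.5% of its proximal contigs. These shares were 22.7% and 32.4% in WT HFD and 27.1% and 34.0% in WT HFD+HDCA. The knockout's direction is opposite to that per contig by the RefSeq order, where its shares per distinct rearrangement were nearly equal. A single knockout chain, TRAV13N-3 to TRAJ50, gave 57 contigs, all in the proximal section by family number. At the other end of the TRAJ row, TRAJ9 and lower took 2.23% and 1.82% of the proximal section in the wild-type libraries and 44.6% (40.3% to 48.96%) in the knockout. The window from TRAJ20 to TRAJ39 was nearly empty in the knockout, with 21 of 1730 rearrangements. There TRAJ10 to TRAJ19 took 43.8% and TRAJ9 and lower 48.5% of knockout rearrangements, against 15.5% and 12.2% in WT HFD+HDCA. The most used single TRAJ segments of the knockout were TRAJ4 at 10.98%, TRAJ7 at 10.4%, TRAJ12 at 10.3% and TRAJ9 at 10.2%. They took 2.40%, 2.36%, 3.904% and 3.23% in WT HFD+HDCA. TRAJ22, the most used in WT HFD+HDCA at 5.78%, was found in 0 of the 1730.

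**Figure D3:**
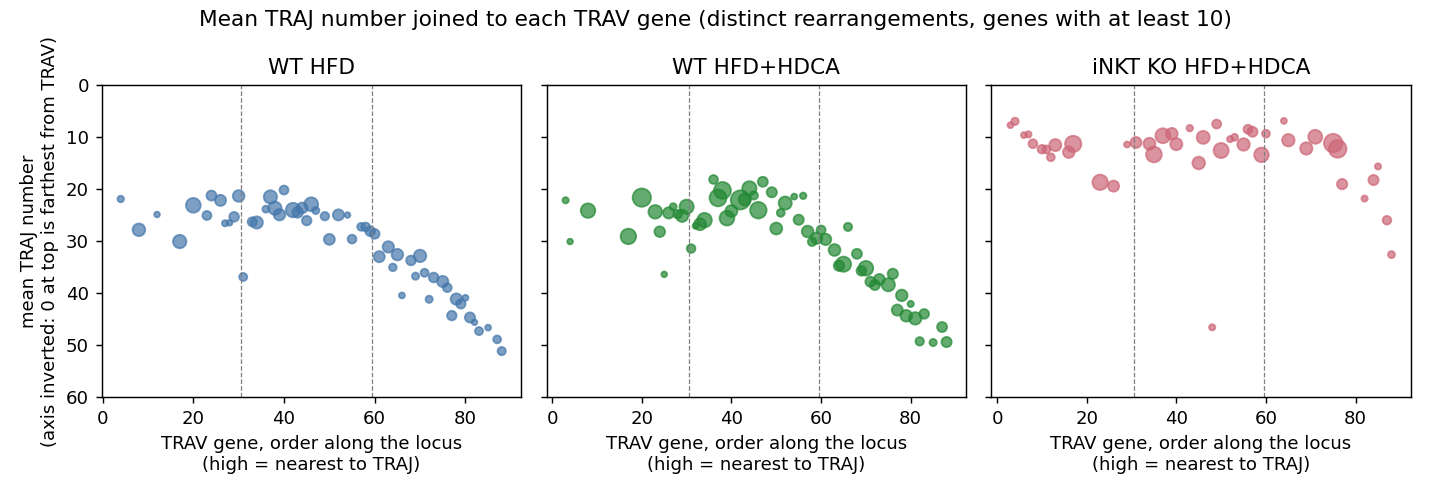
Mean TRAJ number of distinct rearrangements (vertical axis, inverted) for each TRAV gene with at least 10 of them, by the gene's order along the locus (horizontal axis, TRAJ row to the right). Point area grows with the number of rearrangements and dashed lines part the sections. In the wild-type libraries the means sink toward high TRAJ numbers from the start of the proximal section, and in the knockout most lie under 20.

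Across genes with at least 10 rearrangements, the order along the locus and the mean TRAJ number had a Pearson r of 0.82 over 58 genes in WT HFD, 0.74 over 62 in WT HFD+HDCA and 0.32 over 45 in the knockout (Spearman 0.82, 0.69 and 0.26). Genes of 1 library share its cells and depth, and are no replicates. Since a copy's name may not fix its place in the knockout, segments outside the copied block were also compared, a choice made after seeing the data: 7 at the distal end (TRAV1 to TRAV6-2) and 4 at the proximal end (TRAV17 to TRAV21-DV12). Their mean TRAJ numbers were 23.2 ± 9.80 (n = 45) and 49.3 ± 7.82 (n = 52) in WT HFD, and 24.9 ± 11.8 (n = 53) and 48.3 ± 10.2 (n = 79) in WT HFD+HDCA. In the knockout they were 8.30 ± 4.85 (n = 63) and 25.5 ± 19.9 (n = 50). The proximal end thus lay above the distal end in all 3 libraries. In the knockout its 50 rearrangements were split, with 15 at TRAJ40 and higher, 33 at TRAJ19 and lower and 2 between. In WT HFD the corresponding numbers were 47, 0 and 5 of 52.

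By family, the highest means in both wild-type libraries belonged to the single-gene families of the proximal end. TRAV21 averaged 51.1 ± 5.49 (21 rearrangements), 49.4 ± 8.49 (32) and 32.6 ± 21.3 (15) in WT HFD, WT HFD+HDCA and the knockout. TRAV19 averaged 48.9 ± 10.2, 46.5 ± 12.9 and 26.0 ± 20.2, and TRAV17 46.6 ± 6.98, 49.5 ± 7.22 and 15.7 ± 14.1. In the knockout these were again the highest 3. Among families with at least 10 rearrangements in every library the lowest, by both wild-type means together, were TRAV8 (25.8 and 24.9), TRAV9 (28.3 and 25.7) and TRAV12 (27.5 and 27.4). In the knockout TRAV12 was lowest (9.63 ± 7.13), followed by TRAV6 (10.5 ± 8.69) and TRAV7 (11.2 ± 9.24), while TRAV8 was at 14.5 ± 13.0 and TRAV9 at 12.9 ± 11.3.

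Single TRAV to TRAJ pairs were many and small. The libraries held 1168, 1403 and 562 pairs of gene names among 1851, 2664 and 1730 distinct rearrangements, and 514, 548 and 258 pairs of a TRAV family with a TRAJ. The pairs with most distinct rearrangements in WT HFD were TRAV12D-3 with TRAJ15, TRAV5-4 with TRAJ50, and TRAV7-5 with TRAJ26, at 7 each and tied with TRAV9-1 and TRAJ31. In WT HFD+HDCA TRAV3N-3 with TRAJ22 had 15, and TRAV12D-3 with TRAJ23 and TRAV13-1 with TRAJ49 had 9 each, tied with 3 others. In the knockout TRAV3-3 with TRAJ7 had 20, TRAV3-3 with TRAJ15 had 15, and TRAV8D-2 with TRAJ17 had 13, tied with TRAV9-4 joined to TRAJ13 and to TRAJ7. These pairs are by gene name and are given within each library only.

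The junctions of the most frequent rearrangement and the runner-up of each library are printed as CDR3 nucleotide sequences, because these clones move the shares above. Lower case ends were compared base by base, from the start with chains of the same TRAV and from the end with chains of the same TRAJ. They run on while each single base is shared by at least 80% of those chains. Capitals mark the bases between them.
WT HFD, TRAV7-5 to TRAJ26: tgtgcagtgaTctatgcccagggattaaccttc
WT HFD, TRAV7D-2 to TRAJ21: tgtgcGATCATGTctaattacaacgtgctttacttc
WT HFD+HDCA, TRAV6D-6 to TRAJ30: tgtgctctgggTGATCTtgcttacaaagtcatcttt
WT HFD+HDCA, TRAV12D-3 to TRAJ22: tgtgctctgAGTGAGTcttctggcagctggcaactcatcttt
iNKT KO HFD+HDCA, TRAV13N-3 to TRAJ50: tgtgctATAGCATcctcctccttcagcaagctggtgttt
iNKT KO HFD+HDCA, TRAV5N-4 to TRAJ5: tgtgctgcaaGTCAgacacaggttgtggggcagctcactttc

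In WT HFD these chains were found in 88 and 87 contigs, and the same 87 barcodes carried both, so a single clone with a pair of TRAV7 chains supplied 175 of the 419 TRAV7 contigs. In WT HFD+HDCA the printed chains had 32 and 19 contigs and shared 0 barcodes. In the knockout they had 57 and 33 and also shared 0. The TRAV13N-3 chain made up 57 of the 107 TRAJ50 contigs of the knockout.

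Rearrangements found in more than 1 library were few. With the chain defined by family, TRAJ and CDR3 bases, 46 were common to the wild-type libraries, 2.50% of those of WT HFD and 1.74% of those of WT HFD+HDCA. The knockout shared 24 with WT HFD (1.30% of the WT HFD set and 1.41% of its own) and 34 with WT HFD+HDCA (1.29% and 1.995%). A single rearrangement of TRAV14 to TRAJ13 was in all 3 libraries, with 2 contigs in each and the CDR3 below (capitals as for the TRAV14 names of WT HFD+HDCA and the knockout). The wild-type MAIT-type chain is printed beside it, since it was identical in both wild-type libraries.
TRAV14 to TRAJ13, all 3 libraries: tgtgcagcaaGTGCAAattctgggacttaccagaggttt
TRAV1 to TRAJ33, both wild-type libraries: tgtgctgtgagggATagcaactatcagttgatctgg

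The length of the CDR3, the loop that touches the antigen, differed little. Its mean over distinct rearrangements was 40.9 ± 4.02, 41.0 ± 4.39 and 41.1 ± 3.93 nucleotides (SD over chains), and the median was 42 in each. The bases between the shared TRAV and TRAJ stretches numbered 6.70 ± 2.84, 6.80 ± 3.25 and 7.26 ± 3.29. Those stretches were set per name, with the wild-type libraries pooled and the knockout alone. Names with few chains or with mixed V sequences can shift the values, so the genotypes are not matched. Families differed more than libraries. TRAV16 had a mean of 45.2, 44.9 and 44.7 nucleotides and TRAV15 of 46.1, 45.2 and 47.5, against 39.4, 39.3 and 39.8 for TRAV8. Rearrangements to TRAJ50 and higher had 44.2, 43.8 and 42.4 nucleotides, and those to TRAJ30 to TRAJ39 had 40.2, 40.5 and 40.5.

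Barcodes with 2 α contigs were less frequent in the knockout library. They were 287 of 1997 barcodes in WT HFD, or 14.4% (12.9% to 16.0%), 344 of 2891 in WT HFD+HDCA, or 11.9% (10.7% to 13.1%), and 134 of 2011 in the knockout, or 6.66% (5.61% to 7.84%). No barcode held more than 2. With every set of chains counted once, which removes the weight of the WT HFD clone, they were 11.7% (10.2% to 13.3%), 12.4% (11.1% to 13.7%) and 7.76% (6.52% to 9.15%). A pair of cells in 1 droplet would also give 2 α contigs. Barcodes with 2 β contigs were 4.80%, 5.41% and 5.58%. With exactly 1 β contig, barcodes with 2 α contigs were 14.1%, 10.8% and 5.75%. Scrublet, a doublet caller, marked 6.27%, 8.14% and 6.72% of barcodes with 2 α contigs and 6.73%, 8.09% and 7.09% of those with 1. The part that doublets or missed contigs had in the shares was not tested.

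Within a barcode, both chains tended to use TRAJ segments close to each other in the wild-type libraries. Over 194, 303 and 130 distinct pairs of chains, the median distance was 6 TRAJ numbers in WT HFD (quartiles 3.25 and 11), 7 in WT HFD+HDCA (3 and 14) and 5 in the knockout (2 and 8). The correlation of both TRAJ numbers was 0.71, 0.62 and 0.35, while that of the order of both TRAV genes was 0.10, 0.15 and 0.01. The knockout's pairs had less range to differ over, with a mean TRAJ number of 11.1 ± 10.7 (SD) against 29.04 ± 13.9 and 27.8 ± 14.8.

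**Figure D4:**
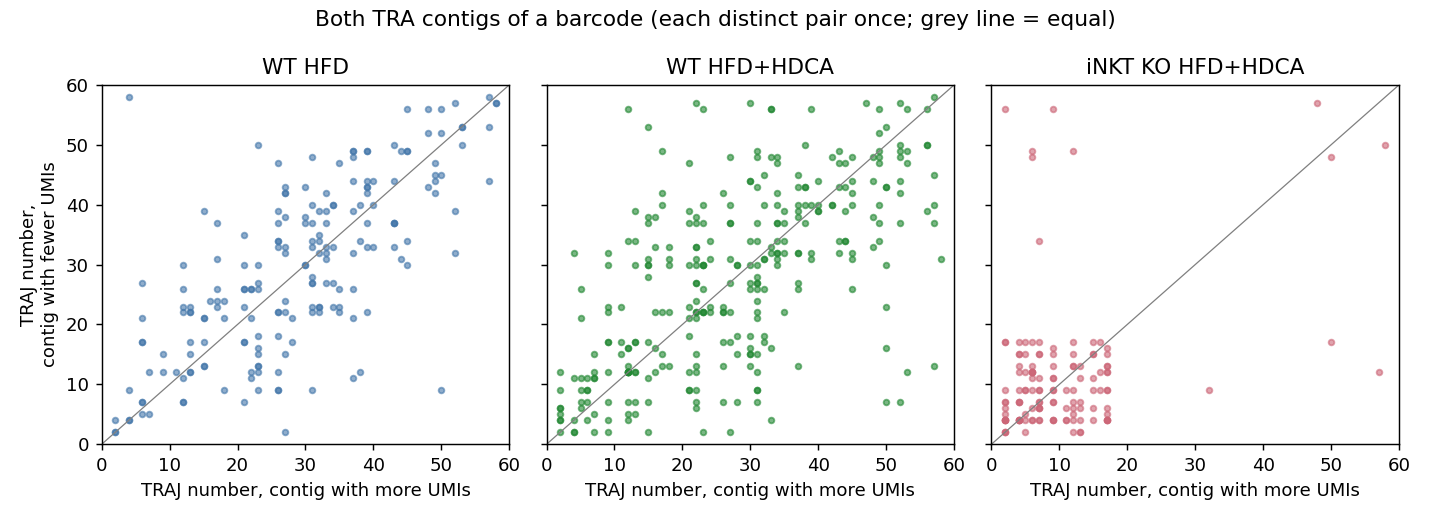
TRAJ numbers of both α contigs of a barcode, the contig with more UMIs on the horizontal axis and the other on the vertical axis, with each distinct pair of chains drawn once. Points of the wild-type libraries spread along the grey line of equal numbers, and 130 knockout pairs lie mostly below TRAJ18 on both axes.

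TRAV use was then compared between CD4 and CD8 cells within each library. A barcode was called CD4 with at least 1 Cd4 UMI and no Cd8a or Cd8b1 UMI, and CD8 with the reverse. CD4 barcodes were 31.3%, 22.9% and 22.3% of TRAV barcodes in WT HFD, WT HFD+HDCA and the knockout, and CD8 barcodes 48.1%, 55.0% and 53.4%. With every cell thinned to 2000 UMIs (7, 9 and 15 shallower cells left out) CD4 barcodes were 16.0%, 12.9% and 12.3% and CD8 barcodes 44.7%, 51.4% and 49.6%. In B cells the same calls took 0.426%, 0.519% and 0.328% for CD4 and 1.09%, 1.15% and 1.64% for CD8. Distinct rearrangements per subset were counted for 86 V and J rows of both receptor loci. They were tested by edgeR's quasi-likelihood test with the library as a block, which uses the 3 libraries as replicates although they differ in genotype and diet. The dispersion common to all rows, the spread beyond counting error, was fitted at 9.8e-05, close to none. The SEs below were derived as the absolute log2 ratio over the square root of edgeR's F statistic. They are thus approximate and need not match the p-values. SEs and p-values reflect mainly the counting of chains, with any spread pooled over rows. They do not measure each family's own spread between libraries.

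Of the 16 TRAV families tested 4 were higher in CD8 cells and 3 in CD4 cells, where 15.1% of all 86 rows were higher in CD8 and 11.6% higher in CD4. TRAV16 took 3.17%, 1.52% and 2% of the CD4 chains and 8.16%, 6.57% and 5.08% of the CD8 chains of WT HFD, WT HFD+HDCA and the knockout. The groups do not overlap, and the log2 ratio of CD8 over CD4 was 1.60 ± 0.29 (SE, edgeR adjusted p = 4.5e-06). Among families that did not pass the threshold, the shares of TRAV7, TRAV17 and TRAV19 did not overlap either. A lack of overlap, here and below, thus does not set the called families apart. TRAV12 took 9.35%, 10.2% and 6% of CD4 chains and 15.0%, 14.5% and 8.43% of CD8 chains. It was higher in CD8 cells in 3 of 3 libraries, although the knockout's CD8 share lay below the wild-type CD4 shares (log2 0.57 ± 0.15, edgeR adjusted p = 0.0014). TRAV3 stood at 4.60%, 3.96% and 6.75% in CD4 and 7.17%, 7.74% and 10.2% in CD8 cells, without overlap (0.74 ± 0.22, edgeR adjusted p = 0.0049). TRAV8 stood at 2.38%, 3.50% and 5% in CD4 and 5.56%, 4.31% and 9.75% in CD8 cells, where only the WT HFD+HDCA CD8 share fell within the CD4 range (0.80 ± 0.26, edgeR adjusted p = 0.012).

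In CD4 cells TRAV14 took 14.4%, 16.0% and 9.75% of chains against 7.79%, 8.98% and 7.82% in CD8 cells, with no overlap (log2 -0.73 ± 0.15, edgeR adjusted p = 4.0e-05). The knockout had the smallest difference of the 3. TRAV4 took 8.08%, 8.52% and 8% of CD4 chains and 2.84%, 4.53% and 4.57% of CD8 chains, also apart (-1.03 ± 0.23, edgeR adjusted p = 1.4e-04). TRAV21, at 11, 11 and 7 rearrangements in CD4 and 6, 12 and 7 in CD8 cells, took 1.74%, 1.67% and 1.75% against 0.742%, 0.877% and 0.711% (-1.11 ± 0.35, edgeR adjusted p = 0.020). It missed the threshold whichever of the 3 libraries was left out (edgeR, DESeq2 or limma adjusted p from 0.0052 to 0.35 over 15 other settings). Without WT HFD, TRAV12 (log2 0.50) and TRAV8 (0.65) also missed it, as did TRAV8 without the knockout (0.71) and TRAV3 without WT HFD+HDCA (0.61). In the 15 settings each of these 7 families kept its direction, but without the library as a replicate block 0 families passed in either direction (2 and 2 at an unadjusted p under 0.05), and with DESeq2 1 passed in each, TRAV16 and TRAV4.

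**Figure D5:**
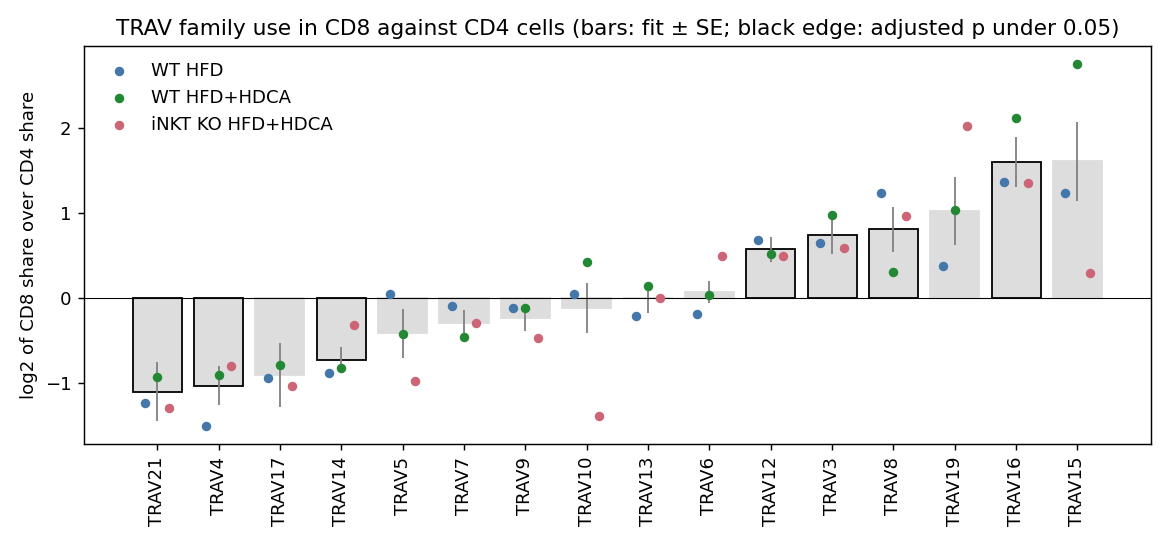
Log2 of the CD8 share over the CD4 share of distinct rearrangements (vertical axis) for the 16 TRAV families tested. Grey bars and lines give the edgeR estimate and the SE derived from its F statistic. A black edge marks an adjusted p under 0.05, and points give the 3 libraries. The points of the 7 called families lie on 1 side of 0, as do those of the uncalled TRAV7, TRAV9, TRAV15, TRAV17 and TRAV19. TRAV10 has its knockout point far below the others.

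Other measures differed little between the subsets. The mean TRAJ number was 30.6, 29.4 and 14.1 in CD4 and 29.4, 28.8 and 12.8 in CD8 cells, and the CDR3 averaged 41.1, 40.7 and 40.6 against 40.8, 41.1 and 41.1 nucleotides. Counting each set of chains once, 2 α contigs were found in 9.98%, 13.0% and 6.72% of CD4 and 11.98%, 11.4% and 8.59% of CD8 cells. On the J side of the same test TRAJ33 (log2 1.52 ± 0.37), TRAJ26 (1.14 ± 0.34) and TRAJ45 (1.08 ± 0.40) were higher in CD8 cells and TRAJ44 (-1.12 ± 0.35) and TRAJ31 (-0.96 ± 0.30) in CD4 cells (edgeR adjusted p from 0.00059 to 0.049). The knockout had 0 to 2 rearrangements of each per subset, so these calls rest on the wild-type libraries.

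The RNA of the TRAV barcodes differed little between libraries for genes of the receptor complex and of V(D)J recombination. Of 26 listed genes, 23 had at least 20 UMIs, and 0 were higher and 1 was lower by 1.5-fold in either comparison, with a median log2 ratio of 0.00 for HDCA in wild type and -0.05 for the knockout (0.01 and -0.01 over all genes). Over all genes 8.96% and 10.4% were past 1.5-fold either way. Under HDCA in wild type the gene past it was Dntt, encoding the enzyme that adds bases at the junction (1.54 against 2.49 CPM, ratio 0.618, 0.385 to 0.988). Trac stood at 194, 198 and 154 CPM, a knockout ratio of 0.779 (0.742 to 0.818). Cd4 was at 96.1, 72.5 and 69.2 CPM, Cd8a at 258, 282 and 290 CPM, and Cd8b1 at 621, 722 and 692 CPM. Rag1 and Rag2, which encode the recombinase, had 0 UMIs in all 3 libraries, which allows up to 0.183, 0.125 and 0.179 CPM.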

How the data were processed

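Gene counts and TCR contigs of 3 liver samples were analysed. The RNA files held UMI counts per gene and barcode that the authors had deposited, made with Cell Ranger 8.0.1 per the file headers. The TCR files held deposited counts of UMIs and reads per contig beside text columns, and every contig was marked productive, full-length and of high confidence, with at most 2 α contigs in a kept barcode. The submitters' processing notes name mm10 and GRCm39, so no coordinates are printed. Depth was 44332213, 70776925 and 46600746 RNA UMIs and 12051, 17458 and 12326 α contig UMIs in WT HFD, WT HFD+HDCA and the knockout. PCR copies limit what read counts add, and intervals and limits of 3 counts at a count of 0 cover counting error only.

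Contigs were selected by V name, families are the number after TRAV, and sequences come from the deposited contigs. Cells were not filtered in the main analysis. B cells had Cd79a and Ms4a1 UMIs and no TCR contig. CD8 was tested against CD4 with edgeR 4.0.16 (R 4.3.3) on distinct rearrangements, with rows of at least 20, the locus total as offset, Benjamini-Hochberg adjustment and a threshold of 0.05. On simulated data the fit recovered 55.5% of 2-fold and 98% of 3-fold changes, and without change it called 1 of 1736 rows. Beside 2-fold and 3-fold changes it also called 8 and 28 rows left unchanged, and 3 and 15 of these had hardly moved in share. Changes were put only into rows well above the minimum of 20, so recovery was not measured for rows as small as TRAV21, with 54 rearrangements. Those data had a larger dispersion than was fitted here and equal segment shares in all libraries, unlike the real ones. The library was a block because both subsets come from the same library: their deviations from the subset means correlated at 0.84, 0.81 and 0.91 over all 86 rows, but at 0.31, 0.11 and 0.28 over the 16 TRAV rows. DESeq2 1.42.0 and limma 3.58.1 were alternatives, with other contig, depth and cell filters (at least 200 genes, under 10% mitochondrial UMIs, no Scrublet call, scanpy 1.11.5). Families named are the 5 most used, the 3 highest and lowest ratios or mean TRAJ numbers, and those past the threshold. Members and lists were chosen with earlier results of these data known. The listed gene past 1.5-fold in the knockout is not reported here.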

Additional observations from a re-analysis of the deposited data

Results flagged for a closer look

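TRAV10 was noted because its CD8 to CD4 ratio pointed the other way in the knockout. The log2 ratio was -1.39 in iNKT KO HFD+HDCA, where TRAV10 took 4.25% of CD4 and 1.62% of CD8 chains (17 and 16 rearrangements), against 0.04 in WT HFD and 0.42 in WT HFD+HDCA. The difference between genotypes was -1.61 on the log2 scale. It does not pass the correction over 86 rows (edgeR interaction test, adjusted p = 0.71, unadjusted 0.037). The genotypes had 1 and 2 libraries, and the wild-type libraries differ in diet.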

How the results depend on the processing

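Limits of depth and design come first: the median contig rested on 4 UMIs, a group had 1 library, and TRAV copies may share names. Counting distinct rearrangements or leaving out the largest one put 1 family past 1.5-fold under HDCA in wild type, and at least 10 UMIs per contig put 7 past it, and 3 in the knockout. At that minimum the ratios under HDCA moved from 0.573 to 0.254 for TRAV7, 1.35 to 2.47 for TRAV3 and 1.54 to 2.27 for TRAV4, and TRAV9 turned from 0.927 to 1.27. The cause was not tested.

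TRAJ40 and higher, per contig, moved per distinct rearrangement to 15.7% (distal) and 49.3% (proximal) in WT HFD and to 7.59% (distal) in the knockout, and with at least 3 UMIs to 7.06% and 4.74% in the knockout. With TRAV ordered by family number it was 22.7%, 27.1% and 4.23% in the distal and 32.4%, 34.0% and 25.5% in the proximal section. Barcodes with 2 α contigs were 10.5% and 5.58% in WT HFD+HDCA and the knockout with at least 3 UMIs, 18.5%, 4.48% and 3.62% with at least 10 (few barcodes remain), 10.6% in WT HFD+HDCA with at most 1 β contig and 11.7% in WT HFD with each set of chains once, an alternative added after seeing the data. Thinned to 2000 UMIs, CD4 barcodes were 16.0%, 12.9% and 12.3% and CD8 barcodes 44.7%, 51.4% and 49.6%.

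Of the CD8 against CD4 calls, 4 and 3 families, without the library as a replicate block 0 and 0 passed (2 and 2 at an unadjusted p under 0.05). The cause was not tested. DESeq2 gave 1 and 1, every contig 1 and 1, and TRAV genes 8 and 10. Leaving out each library gave 2 to 3 in CD8 and 2 in CD4 cells. Per contig, TRAV7 turned from -0.29 to 0.19. The other filters, TMM, limma and subset rules kept both counts within 1.5 times. Adjusted p over the 15 settings reached 0.066 for TRAV16, 0.13 for TRAV4, 0.18 for TRAV14, 0.21 for TRAV3, 0.35 for TRAV21 and 0.39 for TRAV12 and TRAV8.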
